A study of Mus musculus with 26 samples.

Results

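The genes described here encode the proteasome, the protease that degrades ubiquitin-tagged proteins. Members were all rows of the expression table annotated as protein-coding whose symbol started with Psm, a letter from a to g and a number. The rule found 51 of the 51124 genes in the table. Of these, 49 encode subunits, activators, an inhibitor or assembly factors of the proteasome, and 2, Psmc3ip and Psme3ip1, were matched by name only. A filter on low values, which asked for 10 or more normalized counts in 2 or more libraries, kept 50 members. The member left out was Psme2b, listed at 0 in 3 libraries and at most at 9.27 normalized counts.

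The values came from total RNA of whole adult testes of 3 mouse genotypes, with 2 libraries in each. The labels do not say whether the libraries of a genotype came from separate mice, so p-values measure only the spread between these libraries. WT mice carried an unmodified Ythdc2 gene. 10xPerf mice were homozygous for 10 perfectly matched target sites of a single abundant piRNA, placed in the 3′ UTR of Ythdc2. 10xBulge mice were homozygous for 10 sites for the same piRNA that were mismatched where the piRNA-guided enzyme would cut. All lines were made in B6D2F1/J hybrid embryos, and the knock-in was carried in the germline. Ythdc2 encodes an RNA-binding protein needed for meiosis, and the libraries address what else changes in a testis when a piRNA acts on its transcript. Libraries are called by the numbers in their labels: replicates 1 and 2 for WT, 3 and 4 for 10xPerf, and 5 and 6 for 10xBulge.

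The proteasome consists of a barrel-shaped core particle, built from alpha and beta rings, and of caps that bind its ends. The outer alpha rings gate the entry, and the inner beta rings carry the active sites in Psmb5, Psmb6 and Psmb7. The common cap, the regulatory particle, recognizes ubiquitin, unfolds the substrate with a ring of ATPases and threads it into the core. Some subunits have alternative forms. Interferon-induced Psmb8, Psmb9 and Psmb10 take the places of Psmb5, Psmb6 and Psmb7 in the immunoproteasome, which makes peptides for antigen presentation. Spermatogenic cells express Psma8, an alternative to the alpha subunit Psma7, and have large amounts of the activator Psme4 (PA200), which is linked to degradation of acetylated histones.

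Sequence stretches of the promoters give the setting of some of the alternative forms and their counterparts. Promoter windows of 250 bases before to 50 bases after the gene start were taken from RefSeq (GRCm38.p6), and 43 of the 51 members had an entry. The germ cell form Psma8 and the catalytic subunit Psmb7 were among those without an entry. The motifs searched, on both strands, were TGACNNNGC, the core of the antioxidant response element through which NFE2L1 and NFE2L2 act, TTCNNNGAA, the gamma-activated site of interferon gamma responses, and GAAANNGAA, a core bound by interferon regulatory factors. The antioxidant response core was in 6 of the 43 members with an entry and in 12.4% of all promoter windows. The 6 included the germ cell form Psme4 and none of the 5 immune forms. The gamma-activated site was in 3 members, of which Psmb8 is an immune form, and in 8.3% of all windows. The interferon regulatory factor core was in 7 members, of which Psme1 is an immune form, and in 8.56% of all windows. Each member was counted once over its windows (47 for the 43 members), whereas the shares count single windows, so these measures are not alike. The windows below show these matches, in capitals, for a pair of constitutive catalytic subunits and for the 2 immune forms that had a match. All are written 5′ to 3′ on the strand of the gene.
Psmb5, antioxidant response core, chr14:54618024-54618052, minus strand: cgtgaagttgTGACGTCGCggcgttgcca
Psmb6, antioxidant response core, chr11:70525338-70525366, plus strand: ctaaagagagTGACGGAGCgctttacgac
Psmb8, gamma-activated site, chr17:34198088-34198116, plus strand: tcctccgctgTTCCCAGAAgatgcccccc
Psme1, interferon regulatory factor core on the opposite strand, chr14:55578494-55578522, plus strand: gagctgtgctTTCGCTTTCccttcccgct
The Psmb5 match began 47 bases before the RefSeq start, that of Psmb6 9 bases before it and that of Psmb8 97 bases before it, whereas that of Psme1 began 10 bases after it. RefSeq starts can differ from the GENCODE gene spans given further on, which begin further upstream for Psmb8 and Psme1. No match overlapped another. A match describes the letters only, and whether a factor bound there was not measured.

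Sequencing depth was estimated at 41100000 to 61600000 reads per library from the commonest low value, taken as 1 read, and 3 reads were worth 2.73 to 3.63 normalized counts. Whole testis was the source, so fewer cells of a type and less RNA per cell cannot be told apart. All 12 spermatid markers fell in 10xBulge relative to WT, with a summed level of 1231 to 2580 normalized counts in 10xBulge and 586500 to 818600 in WT, while no spermatid marker passed the test in 10xPerf. Of 12 spermatocyte markers, 1 rose and 1 fell in 10xBulge. Among the markers of other cells, 4 of 8 for Sertoli cells, 6 of 8 for Leydig cells, 7 of 10 for macrophages, 1 of 8 for spermatogonia, 0 of 4 for vessel and peritubular cells and 0 of 5 for lymphocytes rose there. Among all genes tested, 11.4% rose and 23.0% fell in 10xBulge against WT. How far the shifts of the markers take part in the changes below was not tested. Replicates differed: the median absolute gap between the 2 libraries of a genotype over the 50 members was 0.56 (log2) in WT, 0.44 in 10xPerf and 0.55 in 10xBulge. In 10xBulge 42 of the 50 members were higher in replicate 5 than in replicate 6.

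In 10xBulge testes, the interferon-induced activator subunits Psme1 and Psme2, the immune catalytic subunits Psmb8 and Psmb9, 4 alpha subunits, Psmb1, Psmb7, Psmc6, Psmd5 and the deubiquitinating subunit Psmd14 were 2.16-fold to 3.52-fold as high as in WT, and the proteasome inhibitor Psmf1 was 17.3-fold lower. The germ cell forms Psma8 and Psme4 did not pass the test. Of the 50 members tested, 13 (26%) rose and 2 (4%) fell in 10xBulge against WT, with limma on log2(normalized count + 1) at an adjusted p below 0.1. Over all 23782 genes tested, 11.4% rose and 23.0% fell. The median log2 fold change was 0.56 for the members and -0.03 for all genes. Without WT replicate 1 only 1 member, Psme2, rose, as did 2.67% of all genes, and without 10xBulge replicate 5 there were 7 members and 7.19% of all genes. Scaling the libraries to equal totals shifted the median of all genes by 0.38 (log2), and 26 members and 24.4% of all genes then rose. Relative to all genes, the median of the members was 0.59 with the deposited scaling and 0.59 with equal totals. Rescaling a library moves almost every gene in it alike, so this difference could hardly change between scalings. Higher calls were 33.2% of all calls with the deposited scaling and 55% with equal totals.

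In 10xPerf against WT no member passed the test, where 0.467% of all genes rose and 0.492% fell by the same limma test. Unadjusted p fell below 0.05 for 2 members, Psmb8 and Psmb11, both lower in 10xPerf. The median log2 fold change was 0.32 for the members and 0.02 for all genes. In 10xBulge against 10xPerf 9 members (18%) rose and 5 (10%) fell, and over all genes 12.9% rose and 24.1% fell. Without 10xPerf replicate 3 those counts were 2 and 2 (1.76% and 15.7% of all genes), and without 10xPerf replicate 4 they were 4 and 1 (7.09% and 18.7%). Without 10xBulge replicate 5, 2 members and 6.66% of all genes rose. The 10xBulge libraries enter both of the comparisons in which members were called.

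**Figure D1:**
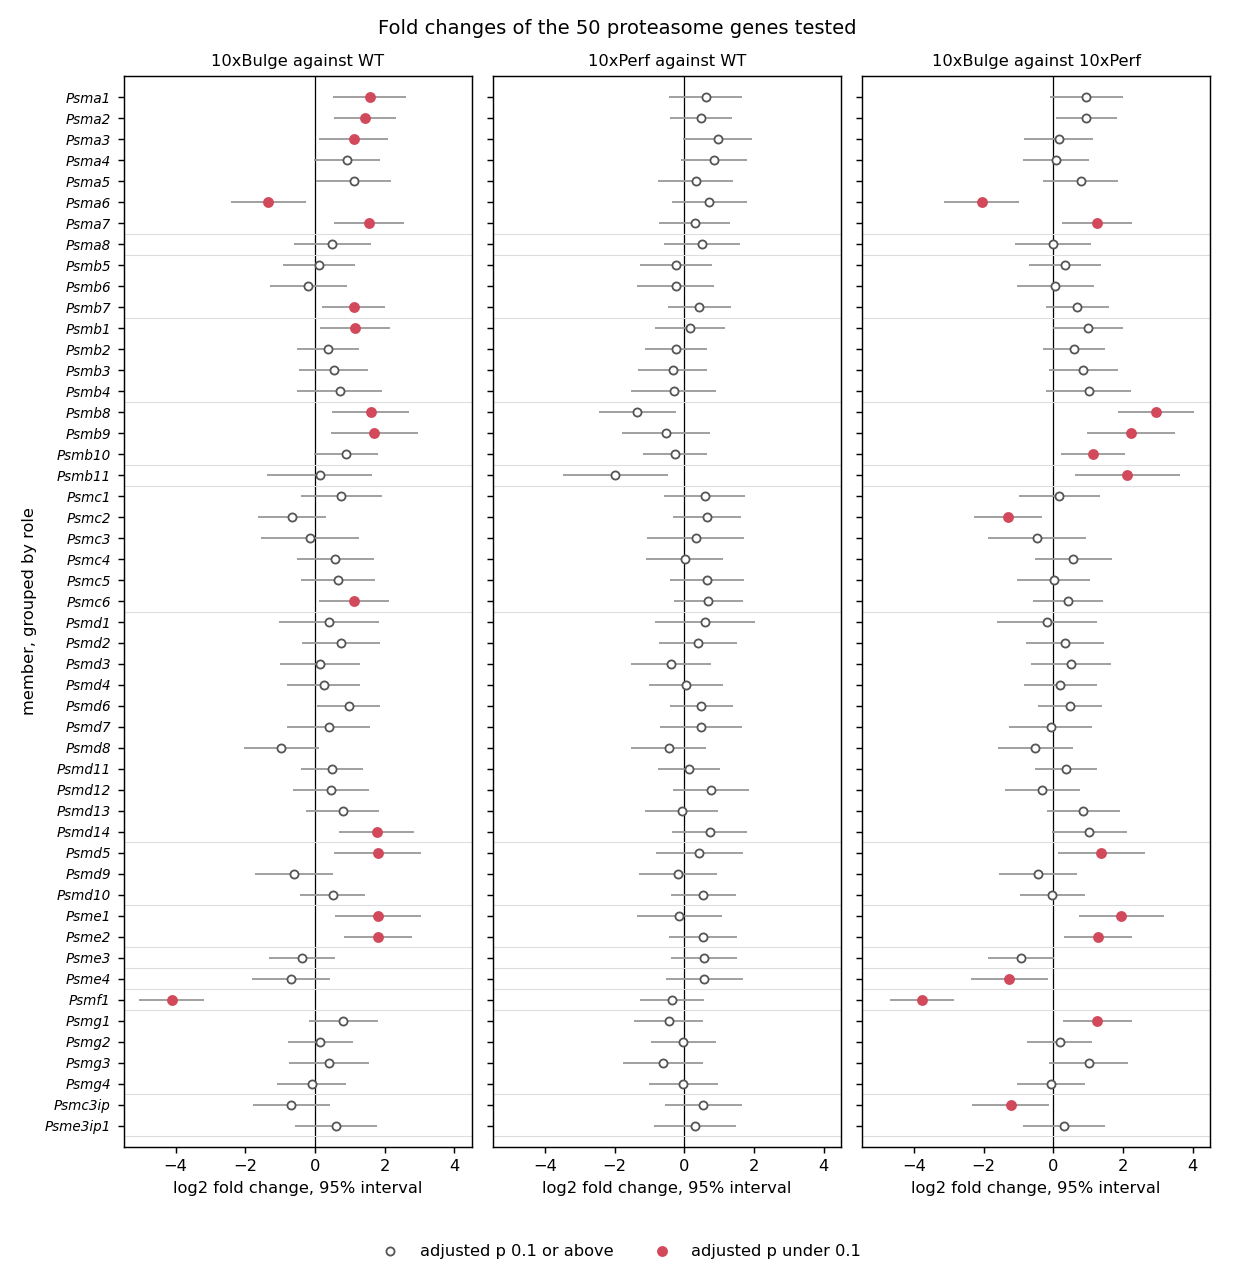
Log2 fold changes of the 50 members tested (x axis, points with 95% confidence intervals from limma) for 3 comparisons, with members in rows grouped by role and filled points for an adjusted p below 0.1. In 10xBulge against WT 13 filled points lie to the right of 0 and 2 to the left, and in 10xPerf against WT none is filled.

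The 3 immune catalytic forms were scarce in WT, and 2 of them, Psmb8 and Psmb9, rose in 10xBulge against WT. Psmb8, the interferon-induced chymotrypsin-like subunit, had 73.5 and 53.2 normalized counts in WT, 22.1 and 26.0 in 10xPerf and 237 and 154 in 10xBulge. The 3 genotypes did not overlap for Psmb8, and 10xPerf was lowest. Psmb8 rose 3.02-fold in 10xBulge against WT (log2 fold change 1.60, SE 0.49, limma adjusted p = 0.0412) and 7.69-fold against 10xPerf (2.94, SE 0.49, adjusted p = 0.00172). The call against 10xPerf held whichever library was left out. Against WT it was lost without WT replicate 1 (1.83, adjusted p = 0.116), WT replicate 2 (1.37, adjusted p = 0.173) or 10xBulge replicate 5 (1.29, adjusted p = 0.15).

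Psmb9, the counterpart of Psmb6, is encoded near Psmb8 on chromosome 17 (GRCm38 34181987 to 34187764, with Psmb8 from 34197721 to 34201454). Psmb9 had 54.1 and 45.2 normalized counts in WT, 25.9 and 45.0 in 10xPerf and 111 and 241 in 10xBulge. Both 10xBulge libraries lay above the other 4, but they differed from each other by 1.11 (log2). Psmb9 rose in 10xBulge against WT (log2 fold change 1.71, SE 0.56, limma adjusted p = 0.0514) and against 10xPerf (2.23, SE 0.56, adjusted p = 0.0163). The call against WT was lost without WT replicate 1 (1.83, adjusted p = 0.177), WT replicate 2 (1.58, adjusted p = 0.193) or 10xBulge replicate 6 (1.15, adjusted p = 0.195), and the call against 10xPerf was lost without 10xPerf replicate 3 (1.84, adjusted p = 0.167).

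Psmb10, the counterpart of Psmb7, had 228 and 206 normalized counts in WT, 182 and 181 in 10xPerf and 470 and 346 in 10xBulge. Both 10xBulge libraries were again the highest, but Psmb10 did not pass the test against WT (log2 fold change 0.89, 95% interval -0.02 to 1.81, limma adjusted p = 0.139). It rose against 10xPerf (1.15, SE 0.41, adjusted p = 0.0633). That call was lost without 10xPerf replicate 3 (1.15, adjusted p = 0.237), 10xPerf replicate 4 (1.14, adjusted p = 0.185) or 10xBulge replicate 5 (0.93, adjusted p = 0.2), and when a trend with GC content was removed.

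Psme1 and Psme2 encode the alpha and beta subunits of PA28, an interferon-induced cap that opens the core without ubiquitin. The 2 genes lie near each other on chromosome 14 (GRCm38, Psme1 55578123 to 55581529 and Psme2 55587441 to 55591113). Psme1 had 519 and 540 normalized counts in WT, 442 and 524 in 10xPerf and 3313 and 1040 in 10xBulge. The 4 WT and 10xPerf libraries were alike, and the 10xBulge libraries were both higher but far apart. Psme2 had 269 and 259 in WT, 323 and 456 in 10xPerf and 1222 and 709 in 10xBulge. Psme1 rose 3.5-fold (log2 fold change 1.81, SE 0.54, limma adjusted p = 0.0373) and Psme2 3.52-fold (1.81, SE 0.43, adjusted p = 0.0142) in 10xBulge against WT. The Psme2 call held whichever library was left out. The Psme1 call held only without 10xBulge replicate 6 and was lost in the other 5 cases, where log2 fold changes were 0.97 to 1.84. Against 10xPerf both rose, by 1.95 for Psme1 (adjusted p = 0.0261) and 1.28 for Psme2 (adjusted p = 0.0562), and both calls were lost without 10xPerf replicate 3 (1.82 and 1.03), 10xPerf replicate 4 (2.07 and 1.52) or 10xBulge replicate 5 (1.11 and 0.88).

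Genes that act with the immune forms moved with them in part. Of 18 interferon and antigen presentation genes, all tested, 5 rose in 10xBulge against WT, among them Tap2, and 1 fell (Nlrc5). The median log2 fold change was 1.19. Among all genes tested, 11.4% rose and 23.0% fell, with a median of -0.03. Tap2, a subunit of the transporter that carries proteasome products into the endoplasmic reticulum, had 430 and 138 normalized counts in WT, 136 and 73.7 in 10xPerf and 864 and 642 in 10xBulge (log2 fold change against WT 1.61, limma adjusted p = 0.0768). Nlrc5, a transactivator of class I antigen presentation genes, had 447 and 345 in WT, 377 and 145 in 10xPerf and 100 and 36.3 in 10xBulge (-2.68, adjusted p = 0.0121). Against 10xPerf 8 of the 18 genes rose and 1 fell, where 12.9% of all genes rose and 24.1% fell. Macrophage markers summed to 4627 to 6029 normalized counts in WT, 5128 to 8585 in 10xPerf and 13900 to 19400 in 10xBulge, with none of the 10 at 0. Lymphocyte markers summed to 170 to 206 in WT, 186 to 199 in 10xPerf and 275 to 336 in 10xBulge, with Nkg7 at 0 in both 10xPerf libraries. The part of these cells in the levels of the immune forms was not tested.

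Among the constitutive counterparts of the immune forms, only Psmb7 passed the test. Psmb5, the constitutive chymotrypsin-like subunit, had 4007 and 2751 normalized counts in WT, 1964 and 4050 in 10xPerf and 3316 and 3845 in 10xBulge. Psmb6, the caspase-like subunit, had 14397 and 7015 in WT, 6815 and 10492 in 10xPerf and 10717 and 7205 in 10xBulge. The genotypes overlapped for both, and the log2 fold changes in 10xBulge against WT were 0.11 for Psmb5 (95% interval -0.93 to 1.14) and -0.19 for Psmb6 (-1.30 to 0.91). Psmb7, the trypsin-like subunit, had 3438 and 3986 in WT, 3998 and 6195 in 10xPerf and 8440 and 7584 in 10xBulge. The rise against WT (1.11, SE 0.40, limma adjusted p = 0.072) was lost when any library other than 10xBulge replicate 6 was left out, with log2 fold changes of 1.00 to 1.22.

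A ratio within a library does not depend on how libraries were scaled. The log2 ratio of Psmb8 to Psmb5 was -5.75 and -5.67 in WT, -6.41 and -7.23 in 10xPerf and -3.80 and -4.63 in 10xBulge, and the mean was 1.49 higher in 10xBulge than in WT. For Psmb9 to Psmb6 it was -8.03 and -7.25 in WT, -7.99 and -7.83 in 10xPerf and -6.58 and -4.90 in 10xBulge, a mean difference of 1.90 from WT. The ratio of Psmb10 to Psmb7 was -3.91 and -4.27 in WT, -4.45 and -5.09 in 10xPerf and -4.16 and -4.45 in 10xBulge, with 10xBulge overlapping WT (difference -0.22). Both 10xPerf libraries lay below WT, but 10xPerf replicate 3 and 10xBulge replicate 6 were level at -4.45. Per length of transcript, Psmb8 was 1.0% and 1.06% of the sum of Psmb8 and Psmb5 in WT, 0.617% and 0.354% in 10xPerf and 3.79% and 2.17% in 10xBulge. Even in 10xBulge the constitutive subunit made up most of each pair. The smallest p that a two-sided exact permutation test of 2 against 2 libraries can give is 0.33, and it was reached in 8 of the 12 ratio comparisons (adjusted over the 12, 0.495).

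**Figure D2:**
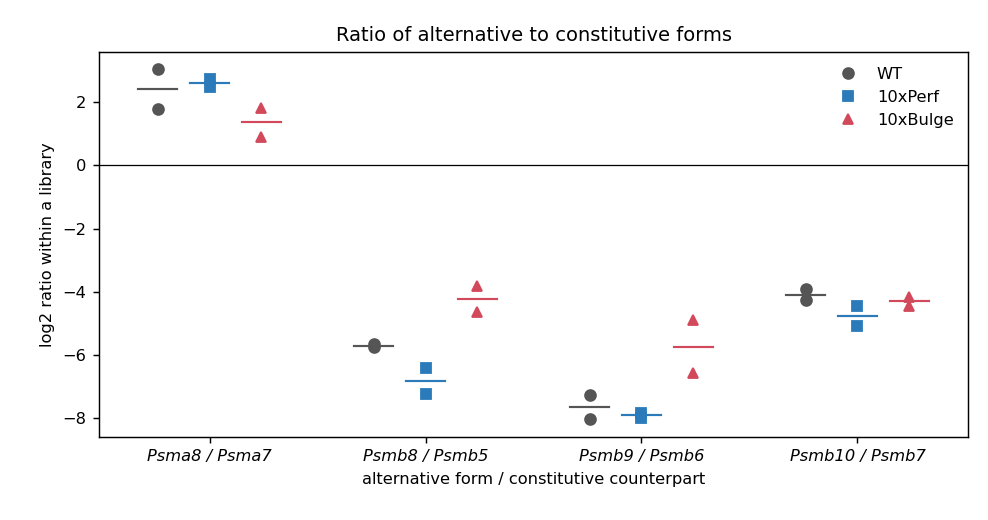
Log2 ratio, within each library, of the normalized counts of an alternative form to those of its constitutive counterpart (y axis) for 4 pairs of genes (x axis), with a symbol for each of the 6 libraries and a bar at the genotype mean. The 10xBulge libraries lie above all others for Psmb8 to Psmb5 and Psmb9 to Psmb6, whereas the genotypes WT and 10xBulge overlap for Psma8 to Psma7 and Psmb10 to Psmb7.

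The germ cell core subunit Psma8, on chromosome 18, had 2624 and 6443 normalized counts in WT, 5148 and 6599 in 10xPerf and 5948 and 5697 in 10xBulge. WT replicate 1 was lowest and the other 5 libraries were alike. Its log2 fold change in 10xBulge against WT was 0.50 (95% interval -0.59 to 1.59, limma adjusted p = 0.482), and -0.15 without WT replicate 1. Its counterpart Psma7 had 771 and 789 in WT, 781 and 1174 in 10xPerf and 3166 and 1639 in 10xBulge, with both 10xBulge libraries highest. Psma7 rose in 10xBulge against WT (1.55, SE 0.45, adjusted p = 0.033), a call lost without WT replicate 1 (1.53, adjusted p = 0.148), WT replicate 2 (1.56, adjusted p = 0.111) or 10xBulge replicate 5 (1.07, adjusted p = 0.147). It rose against 10xPerf (1.25, adjusted p = 0.0663), a call that held without 10xBulge replicate 6 and was lost in the other 5 cases (0.78 to 1.54) and with a trend with GC content removed (0.725).

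Per length of transcript, Psma8 accounted for 64.8% and 81.5% of the sum of Psma8 and Psma7 in WT, 78.1% and 75.2% in 10xPerf and 50.4% and 65.3% in 10xBulge. The log2 ratio of Psma8 to Psma7 was 1.77 and 3.03 in WT, 2.72 and 2.49 in 10xPerf and 0.91 and 1.80 in 10xBulge. The 10xBulge libraries lay below both 10xPerf libraries and overlapped with WT (difference from WT -1.04, two-sided exact permutation p = 0.67). Levels of Psma8 in 10xBulge stood beside spermatocyte markers with summed levels of 27890 and 38460 normalized counts there and 31940 and 51430 in WT.

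Psme4, whose product PA200 caps the core as a single large chain, had 14178 and 25372 normalized counts in WT, 32084 and 24916 in 10xPerf and 8564 and 16134 in 10xBulge. WT overlapped with 10xBulge, and 10xPerf lay above 10xBulge. Psme4 did not pass the test in 10xBulge against WT (log2 fold change -0.69, 95% interval -1.80 to 0.42, limma adjusted p = 0.335) and fell against 10xPerf (-1.27, SE 0.49, adjusted p = 0.0857). That call was lost without 10xPerf replicate 3 (-1.08, adjusted p = 0.39), 10xPerf replicate 4 (-1.45, adjusted p = 0.208) or 10xBulge replicate 5 (-0.81, adjusted p = 0.279), and with libraries scaled to equal totals. Psme3, the nuclear PA28 gamma cap, had 5658 and 5101 in WT, 8152 and 7723 in 10xPerf and 5612 and 3080 in 10xBulge, and passed no test (-0.37 against WT and -0.93 against 10xPerf).

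The largest change of any member was that of Psmf1, which encodes PI31, a protein that inhibits the core particle in vitro and serves as an adaptor for its transport and assembly. Psmf1 had 34320 and 25016 normalized counts in WT, 22413 and 23506 in 10xPerf and 2016 and 1415 in 10xBulge. In WT it stood at 7789 normalized counts per kb of transcript and in 10xBulge at 450. It fell 17.3-fold against WT (log2 fold change -4.12, SE 0.41, limma adjusted p = 7.3e-05) and 13.6-fold against 10xPerf (-3.76, SE 0.41, adjusted p = 0.000118). Both calls held whichever library was left out, at -4.37 to -3.86 against WT. The fall stood beside that of the spermatid markers, whose median log2 fold change was -8.33 in 10xBulge against WT, and the part of spermatids in it was not tested.

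**Figure D3:**
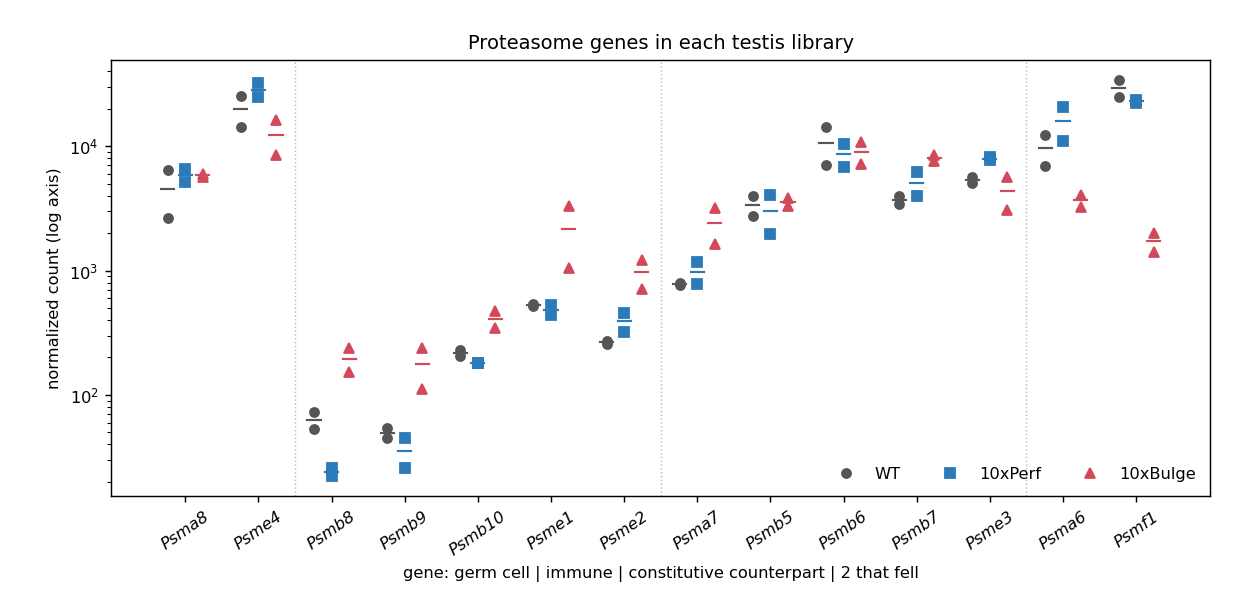
Normalized counts (log axis) of 14 members in the 6 libraries, with a symbol for each library and a bar at the genotype mean, in 4 blocks: germ cell forms, immune forms, constitutive counterparts, and Psma6 and Psmf1. Both 10xBulge libraries are the highest for Psmb8, Psmb9, Psmb10, Psme1, Psme2, Psma7 and Psmb7, and the lowest for Psma6 and Psmf1.

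Of the 7 constitutive alpha subunits, 4 rose in 10xBulge against WT (Psma1, Psma2, Psma3 and Psma7) and 1 fell (Psma6). The other 2 did not pass (Psma4, log2 fold change 0.92, and Psma5, 1.11). Among all genes tested, 11.4% rose and 23.0% fell. Psma1 had 681 and 1288 normalized counts in WT, 1092 and 1898 in 10xPerf and 2842 and 2712 in 10xBulge. Psma2 had 1101 and 1422 in WT, 1498 and 2054 in 10xPerf and 3639 and 3130 in 10xBulge. For these 2 genes the 10xBulge libraries were the highest and the WT libraries overlapped with or lay below 10xPerf. Log2 fold changes against WT were 1.57 (SE 0.46) for Psma1, 1.43 (SE 0.39) for Psma2 and 1.11 (SE 0.44) for Psma3, with limma adjusted p from 0.0257 to 0.0964. Psma3 had 1513 and 3036 in WT, 4218 and 4136 in 10xPerf and 4125 and 5176 in 10xBulge, so that both knock-in lines lay above WT.

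All 7 alpha subunits were lower in WT replicate 1 than in WT replicate 2, by a median of 0.84 (log2). Without WT replicate 1 the log2 fold changes were 1.11 for Psma1, 1.25 for Psma2 and 0.61 for Psma3, and none of the 3 passed the test (limma adjusted p = 0.205, 0.125 and 0.386). The calls of Psma1 and Psma2 held when any other library was left out, and that of Psma3 held only without WT replicate 2 (1.61).

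Psma6 went the other way from the rest of its ring. It had 6881 and 12322 normalized counts in WT, 11046 and 20722 in 10xPerf and 4068 and 3256 in 10xBulge, so that both 10xBulge libraries lay below the other 4. It fell in 10xBulge against WT (log2 fold change -1.34, SE 0.48, limma adjusted p = 0.0697) and against 10xPerf (-2.06, SE 0.48, adjusted p = 0.0115). The call against WT was lost without WT replicate 2 (-0.92, adjusted p = 0.279), 10xPerf replicate 3 (-1.34, adjusted p = 0.111), 10xPerf replicate 4 (-1.34, adjusted p = 0.112) or 10xBulge replicate 6 (-1.18, adjusted p = 0.141), and under library totals. The call against 10xPerf was lost only without 10xPerf replicate 4 (-1.60, adjusted p = 0.12).

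Although each alpha subunit occupies the same number of places in the ring, transcript levels were unequal. Per kb of transcript, Psma6 averaged 9214 normalized counts in WT, whereas the other 6 constitutive alpha subunits averaged 433 (Psma2) to 1354 (Psma4). In 10xBulge Psma6 averaged 3514 per kb, beside 1163 to 2629 for the other 6. The beta ring had a similarly high member in WT, Psmb6 at 13416 per kb beside 1534 to 3759 for the other 6 constitutive beta subunits, and in 10xBulge Psmb6 remained the highest at 11229. In the regulatory particle Psmd8 (12408 per kb) and Psmc3 (10217) were the highest in WT and Psmc6 (476) the lowest. Lengths were those of the principal GENCODE M21 transcript (GRCm38), so that another isoform in testis would change a level per kb but not a fold change.

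**Figure D4:**
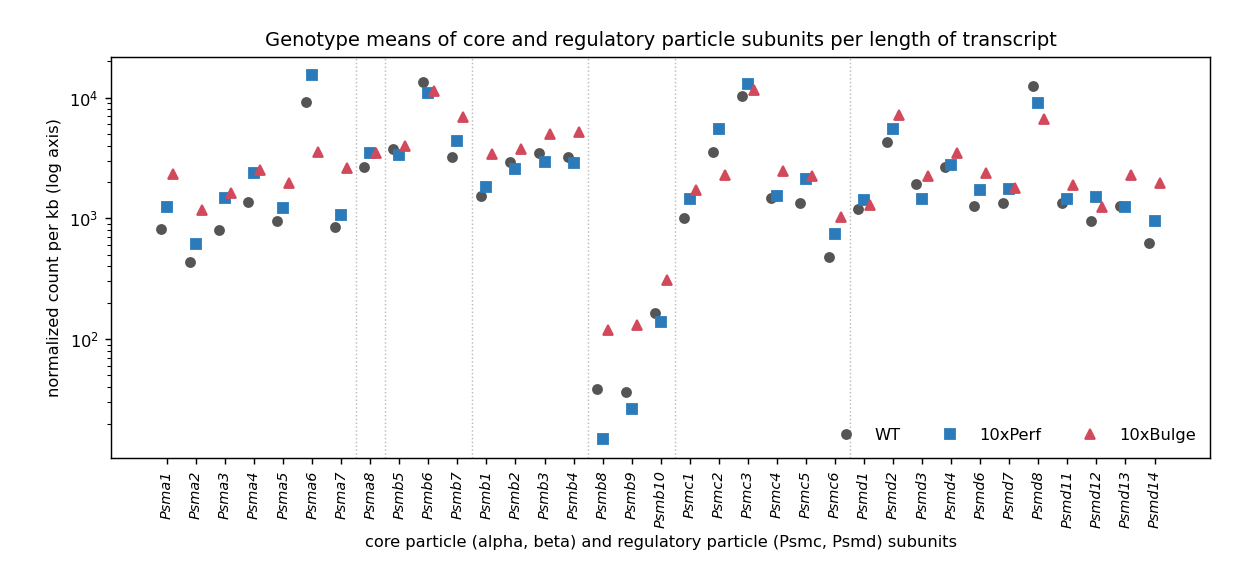
Genotype means of normalized counts per kb of principal transcript (log axis) for the alpha subunits with Psma8, the beta subunits with the immune forms, and the ATPase (Psmc) and other (Psmd) subunits of the regulatory particle, with a symbol for each genotype. Psmb11 is not plotted. Of the genes shown, Psmb8 and Psmb9 are the lowest in every genotype, and Psma6 is the highest alpha subunit in WT at 9214.

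Of the 4 beta subunits without an active site, Psmb1 rose in 10xBulge against WT, as did 11.4% of all genes. Psmb2, Psmb3 and Psmb4 did not pass. Psmb1 had 2521 and 2874 normalized counts in WT, 2076 and 4360 in 10xPerf and 6379 and 5564 in 10xBulge (log2 fold change 1.15, SE 0.45, limma adjusted p = 0.0915). Its call was lost without WT replicate 1 (1.05), WT replicate 2 (1.24), 10xBulge replicate 5 (1.05) or 10xBulge replicate 6 (1.24). The other 3 had log2 fold changes of 0.37 to 0.70. Psmb11, the thymus form that belongs to cortical epithelial cells there, was listed at 48.3 and 72.5 in WT, 27.1 and 7.3 in 10xPerf and 78.3 and 54.1 in 10xBulge. It did not pass against WT (0.14) and was higher in 10xBulge than in 10xPerf (2.11, SE 0.67, adjusted p = 0.0428). Without 10xPerf replicate 4, the library with 7.3, that difference was 1.24 (adjusted p = 0.234), and without 10xBulge replicate 5 it was 1.85 (adjusted p = 0.13).

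In the regulatory particle 2 of 17 subunits (11.8%) rose in 10xBulge against WT, a share near that of all genes (11.4%). Of 6 ATPases only Psmc6 rose in 10xBulge against WT. It had 780 and 1347 normalized counts in WT, 1799 and 1533 in 10xPerf and 1726 and 2842 in 10xBulge (log2 fold change 1.11, SE 0.44, limma adjusted p = 0.098). Without WT replicate 1 (0.72), 10xPerf replicate 3 (1.11), 10xPerf replicate 4 (1.11) or 10xBulge replicate 6 (0.75) it did not pass. Psmc2 had 5300 and 7304 normalized counts in WT, 9398 and 10085 in 10xPerf and 5280 and 2947 in 10xBulge. It fell against 10xPerf only (-1.30, SE 0.43, adjusted p = 0.0514, and -0.66 against WT with adjusted p = 0.297). That call was lost without 10xPerf replicate 3 (-1.35), 10xPerf replicate 4 (-1.25) or 10xBulge replicate 6 (-0.88), and with the GC trend removed. The other 4 ATPases had log2 fold changes of -0.15 to 0.76 against WT.

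Of the 11 other subunits of the regulatory particle, only Psmd14, the deubiquitinase that removes ubiquitin chains from substrates, rose in 10xBulge against WT. It had 559 and 1376 normalized counts in WT, 1376 and 1553 in 10xPerf and 2962 and 3025 in 10xBulge, with both 10xBulge libraries highest and close together (log2 fold change 1.77, SE 0.48, limma adjusted p = 0.0239). Without WT replicate 1 the change was 1.12 (adjusted p = 0.132), and the call held when any other library was left out. The other 10 had log2 fold changes of -0.96 (Psmd8) to 0.97 (Psmd6). Among them Psmd2, which forms the base of the particle with Psmd1, had 9026 and 16306 in WT and 27327 and 14962 in 10xBulge.

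The 2 libraries of 10xBulge also differed in the regulatory particle. Replicate 6 was lower than replicate 5 for 5 of 6 ATPases, by a median of 1.09 (log2) over the 6, and for 10 of the 11 other subunits, by a median of 0.87. For Psme1 and Psme2, both lower in replicate 6, the median gap was 1.23, and for the 7 constitutive alpha subunits it was 0.22, with 6 lower in replicate 6. The widest gap was that of Psmc3, with 30200 normalized counts in replicate 5 and 7426 in replicate 6.

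Of the 3 chaperones that assemble the regulatory particle, Psmd5 rose in 10xBulge against WT, as did 11.4% of all genes. Psmd9 (log2 fold change -0.61) and Psmd10 (0.51) did not pass. Psmd5 had 341 and 995 normalized counts in WT, 579 and 1064 in 10xPerf and 2027 and 2054 in 10xBulge. The 10xBulge libraries were alike and the highest, and WT replicate 1 was the lowest. Psmd5 rose 3.5-fold against WT (1.81, SE 0.55, limma adjusted p = 0.0412), a call lost only without WT replicate 1 (1.04, adjusted p = 0.248). It also rose against 10xPerf (1.38, SE 0.55, adjusted p = 0.0944), a call lost when any 10xPerf or 10xBulge library was left out (0.94 to 1.82).

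None of the 4 chaperones that assemble the core passed the test in 10xBulge against WT, with log2 fold changes of -0.10 (Psmg4) to 0.81 (Psmg1). Psmg1, which pairs with Psmg2 to guide the alpha ring, rose against 10xPerf. It had 1690 and 1026 normalized counts in WT, 777 and 1195 in 10xPerf and 2670 and 1996 in 10xBulge (1.26, SE 0.44, limma adjusted p = 0.0597). That call was lost without 10xPerf replicate 3 (0.95), 10xPerf replicate 4 (1.57) or 10xBulge replicate 5 (1.05).

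The 2 genes matched by name only encode no part of the proteasome. Psmc3ip, which encodes the meiotic recombination factor HOP2, had 922 and 1986 normalized counts in WT, 2123 and 1852 in 10xPerf and 1113 and 642 in 10xBulge. It fell in 10xBulge against 10xPerf (log2 fold change -1.23, SE 0.49, limma adjusted p = 0.0903) and did not pass against WT (-0.68, adjusted p = 0.337). The call was lost without 10xPerf replicate 3 (-1.13), 10xPerf replicate 4 (-1.33) or 10xBulge replicate 6 (-0.83), and under library totals. Psme3ip1, whose product binds Psme3, had 1522 and 1873 in WT, 1958 and 2246 in 10xPerf and 4430 and 1502 in 10xBulge, and passed no test (0.61 against WT).

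Other genes of the pathway changed in both directions. Of 25 genes for further proteasome parts, shuttles, ubiquitin and regulators, 24 were tested. Of these, 5 rose and 2 fell in 10xBulge against WT, with a median log2 fold change of 0.31. Among all genes tested, 11.4% rose and 23.0% fell, with a median of -0.03. Those that rose were Vcp, the ATPase that extracts ubiquitinated proteins (1.81, limma adjusted p = 0.0247), Txnl1 and Usp14, which associate with the regulatory particle (1.42 and 1.31), Zfand5 (adjusted p = 0.0494) and Fbxo7, a partner of Psmf1 (0.97, adjusted p = 0.0968). Among those that fell was Ufd1, a cofactor of Vcp (-1.91, adjusted p = 0.0104). Ufd1 had 2647 and 4936 normalized counts in WT, 5653 and 4323 in 10xPerf and 933 and 991 in 10xBulge, with both 10xBulge libraries below the other 4.

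The regulators Nfe2l1, Nfe2l2 and Ddi2 did not pass in any comparison. Nfe2l1, the transcription factor that raises proteasome subunits when proteasome activity is short, had 4834 and 4748 normalized counts in WT, 4543 and 4105 in 10xPerf and 16215 and 5392 in 10xBulge (log2 fold change against WT 0.96, limma adjusted p = 0.209). Nfe2l2 had a log2 fold change of 1.14 (adjusted p = 0.115) and Ddi2, the protease that activates Nfe2l1, one of 0.88 (adjusted p = 0.222). In 10xPerf against WT none of the 24 genes passed, and in 10xBulge against 10xPerf 2 rose (Fbxo7 and Pomp) and 3 fell, among them Ufd1. The shares of all genes that rose and fell against 10xPerf were 12.9% and 24.1%.

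Reads could be told apart between the forms compared here. No stretch of 31 bases was shared between the annotated transcripts (GENCODE M21) of Psma8 and Psma7, Psmb8 and Psmb5, Psmb9 and Psmb6, Psmb10 and Psmb7, or Psme1 and Psme2. Of 807 such stretches in Psme2b, 617 also occurred in Psme2, so the values of Psme2b, at 0 to 9.27 normalized counts, are uncertain. Over all 1275 pairs of members, 9 shared a stretch. Psmb11 shared 24 with Psmd11 and 23 with Psmd9, both more abundant, so the values of Psmb11, at 7.3 to 78.3, are less certain too. Of 3112 stretches in Psma7, 15 also occurred in Psmd11 and 9 in Psmd3, both more abundant than Psma7. How far this touches the values of Psma7 was not tested.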

How the data were processed

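Total RNA of adult testes was sequenced after rRNA depletion (stranded, single-end reads) in 6 libraries, 2 per genotype. The authors quantified transcripts with salmon on the GRCm39 Ensembl transcripts and normalized gene counts with DESeq2. The deposited values are thus a signal in normalized read counts, neither whole reads nor scaled by length. Comparison columns of the same table (fold changes and p-values) were not used, and 20 libraries of MILI and MIWI immunoprecipitates were not analysed here.

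Genes that reached 10 normalized counts in 2 or more libraries (23782 of 51124) were fitted with limma 3.58.1 (R 4.3.3, mean-variance trend) on log2(value + 1) in all 6 libraries with genotype as the only term, so that fold changes of low genes are understated. P-values were adjusted by Benjamini-Hochberg over all genes tested, with a threshold of 0.1, and the script was tested on simulated data. Standard errors (SE) and intervals are those of the fit. Depth was estimated from the commonest low value, and 7.22% to 10.5% of values per library were whole multiples of it (tolerance 0.001), so read counts were not recovered. Positions, lengths and GC content came from GENCODE M21 (GRCm38), not the build of the authors.

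The members, marker lists and pathway lists were chosen with earlier results of these data known. Values per library are given for the germ cell and immune forms with their counterparts, the 3 largest called changes in each direction, genes matched by name only, and every other member past the threshold. Alternatives were other scalings, filters, pseudocounts, models, thresholds, removal of a GC trend and leaving out each library.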

Additional observations from a re-analysis of the deposited data

Results flagged for a closer look

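The 10xBulge and 10xPerf lines differed, by the fit of 10xBulge against 10xPerf, in 10 members whose changes from the shared WT libraries lay on opposite sides of 0. Lower in 10xBulge were Psma6 (log2 difference -2.06, limma adjusted p = 0.0115), Psmc2 (-1.30, adjusted p = 0.0514), Psme4 (-1.27, adjusted p = 0.0857) and Psmc3ip (-1.23, adjusted p = 0.0903). Higher in 10xBulge were Psmb8 (2.94, adjusted p = 0.00172), Psmb9 (2.23, adjusted p = 0.0163), Psmb11 (2.11, adjusted p = 0.0428), Psme1 (1.95, adjusted p = 0.0261), Psmg1 (1.26, adjusted p = 0.0597) and Psmb10 (1.15, adjusted p = 0.0633). Against WT, none of the 10 passed the test in 10xPerf, and only Psma6, Psmb8, Psmb9 and Psme1 passed in 10xBulge. Some of the changes from WT were near 0 and changed sign under some alternative settings. They were -0.14 for Psme1 and -0.25 for Psmb10 in 10xPerf, and 0.14 for Psmb11 in 10xBulge. The change of Psmc3ip in 10xPerf, 0.55 in the main fit, was -0.0029 without WT replicate 1. How many of all genes had changes on opposite sides of 0 was not counted.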

How the results depend on the processing

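No paired analysis was possible because each library carries a number of its own. Where a library was left out, the other of its genotype was assumed to vary like the rest. In 10xBulge against WT the 13 members that rose were 26 under library totals, 8 when the threshold was 0.05, and 1 to 12 when a library was left out (1 without WT replicate 1). The 2 that fell were 1 under library totals, with a filter of 1 in 1 library, with only the 2 genotypes compared, at the threshold of 0.05 and with no mean-variance trend, and 1 to 4 when a library was left out. In 10xBulge against 10xPerf the 9 that rose were 19 under library totals, 4 at the threshold of 0.05, and 2 to 10 when a library was left out. The 5 that fell were 3 under library totals, with the filter of 1 in 1 library and with no mean-variance trend, 2 at the threshold of 0.05, and 1 to 6 when a library was left out. Shares of all genes moved too. In 10xBulge against WT 11.4% rose in the main fit, 24.4% under library totals and 5.76% at the threshold of 0.05. Against 10xPerf these shares were 12.9%, 21.5% and 7.25%. Shares that fell were 23.0%, 20.0% and 19.5% against WT, and 24.1%, 21.7% and 20.5% against 10xPerf. Shares also changed with the library left out, so these changes in count alone do not set the members apart from all genes. The causes were not tested, and a fit with a library left out also rests on fewer samples. No member was called in 10xPerf against WT under any of these.

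Changes of sign in 10xBulge against WT touched genes that had not passed, and more of them than are detailed here. Psmd1 ranged from -0.61 to 1.44 over the alternatives, Psmc3 from -1.16 to 0.86 and Psmd7 from -0.22 to 1.00. Psmd3, Psmd4, Psmd12, Psmc4, Psme3, Psme3ip1, Psmb11, Psmg3 and Psmg4 also crossed 0. Psma8 ranged from -0.15 (without WT replicate 1) to 1.15 (without WT replicate 2) over the left-out libraries. Psmb5 was -0.0355 with the upper quartile and -0.0221 with the GC trend removed, and ranged from -0.17 (without WT replicate 2) to 0.38 (without WT replicate 1), with -0.0016 without 10xBulge replicate 6. Psmb6 was 0.19 with library totals and ranged from -0.71 (without WT replicate 2) to 0.33 (without WT replicate 1), with 0.09 without 10xBulge replicate 6. The upper quartile moved the median of all genes by -0.14 and left the members 0.58 above it, a difference that rescaling whole libraries could hardly change. The 4 ratios kept their direction under both other pseudocounts, the GC correction and each left-out library. Over the 16 alternatives (15 for Psmb11), calls against WT were lost in 11 for Psma3, 10 for Psmc6, 9 for Psma6, 8 for Psmb7, 7 for Psmb1 and 0 to 6 for the other 10 genes. Calls against 10xPerf were lost in 9 for Psma7 and Psmd5, 8 for Psmc3ip, 7 for Psme4 and 0 to 5 for the other 10. With 2 libraries per genotype, the 95% interval of a member reached a median of 1.07 (log2) to each side.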
